A study of Mus musculus with 4 samples.

Results

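Tight junctions seal the cleft between neighbouring endothelial cells of brain vessels and are a structural basis of the blood-brain barrier. Claudin strands close the cleft, occludin and tricellulin belong to the MARVEL family, and the lipolysis-stimulated lipoprotein receptor (LSR, angulin-1) recruits tricellulin to the corners where 3 cells meet. Adhesion molecules of the immunoglobulin superfamily hold the membranes together, and plaque proteins such as ZO-1 and paracingulin tie them to actin. The 9 genes described here, Cldn5, Ocln, Marveld2, Lsr, F11r, Jam2, Esam, Tjp1 and Cgnl1, were chosen by symbol for these roles. All 9 were among the 14100 genes listed in both deposited tables, and all 9 passed the filter on low counts.

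RNA of endothelial cells from the brain of C57BL/6 mice at embryonic day 18 was sequenced in 2 libraries of the genotype STING ECKO (STINGECKO in the labels; replicates 1 and 2) and 2 of wild type (WT, replicates 3 and 5). The labels do not spell out this genotype, whose name reads as an endothelial cell knockout of STING, an adaptor of cytosolic DNA sensing. The sources used here give neither the promoter behind the deletion, nor how the cells were isolated, nor the animals behind each library, so a p-value measures the spread between libraries, and that spread may be technical. The series' design text speaks of triplicates, while 2 libraries per genotype were analysed here.

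Listed reads numbered 18610298 and 22169261 for STING ECKO 1 and 2, against 21472677 and 20591981 for WT 3 and 5. Levels are given as CPM, counts per 1000000 reads on library sizes scaled by TMM, a trimmed mean of ratios between libraries. Tmem173, the gene of STING, reached 3.65 and 8.32 CPM in STING ECKO 1 and 2, against 4.48 and 6.27 CPM in WT 3 and 5, so it did not separate the labels, on which all directions here rest, and a count over the whole gene may include exons outside the deleted part. STING ECKO 1 had 0 reads of Xist, the RNA of the inactive X chromosome, where the others had 876 to 3374, so the libraries differed in this marker of sex. STING ECKO 2 had 0 reads in 13.2% of the genes in both tables, against 2.39% to 5.25% in the others, but none of the 9 genes was at 0 in any library. All 10 endothelial markers were present, with summed levels of 16814 and 12864 CPM in STING ECKO 1 and 2, against 16059 and 15844 CPM in WT 3 and 5. Of 9 markers of epithelium and choroid plexus, tissues with tight junctions of their own, Epcam, Cdh1 and 5 more were absent from one or both tables, and the other 2 summed to at most 24.5 CPM in any library. RNA of other vascular and immune cells was present too: pericyte and smooth muscle markers summed to 6730 to 9314 CPM over the 4 libraries, and microglia and macrophage markers to 1287 CPM in WT 5 and 299.5 to 514 CPM in the others. In bulk RNA, fewer cells of a type and less RNA per cell cannot be told apart.

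To set genes side by side, CPM was divided by the length of a gene's merged exons in kilobases. Cldn5, the claudin that dominates strands of brain endothelium, exceeded every other member by a wide margin. Its level per kb was 7402 and 8849 in STING ECKO 1 and 2, against 7661 and 7432 CPM per kb in WT 3 and 5. It ranked first or second among the 12041 protein-coding genes in both tables in each library, and made up 88.2% to 89.7% of the summed level per kb of the 9 genes. Esam followed at a mean of 630 CPM per kb over the 4 libraries, then F11r at 142, Ocln at 85.4, Lsr at 39.7, Cgnl1 at 32.6, Jam2 at 26.4, Tjp1 at 22.3 and Marveld2 at 14.9 CPM per kb. From Cldn5 down to Lsr, each gene lay above the next in every library. From Lsr to Marveld2, the ranges of neighbouring genes over the 4 libraries overlapped, so their order is not resolved beyond the spread.

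**Figure D1:**
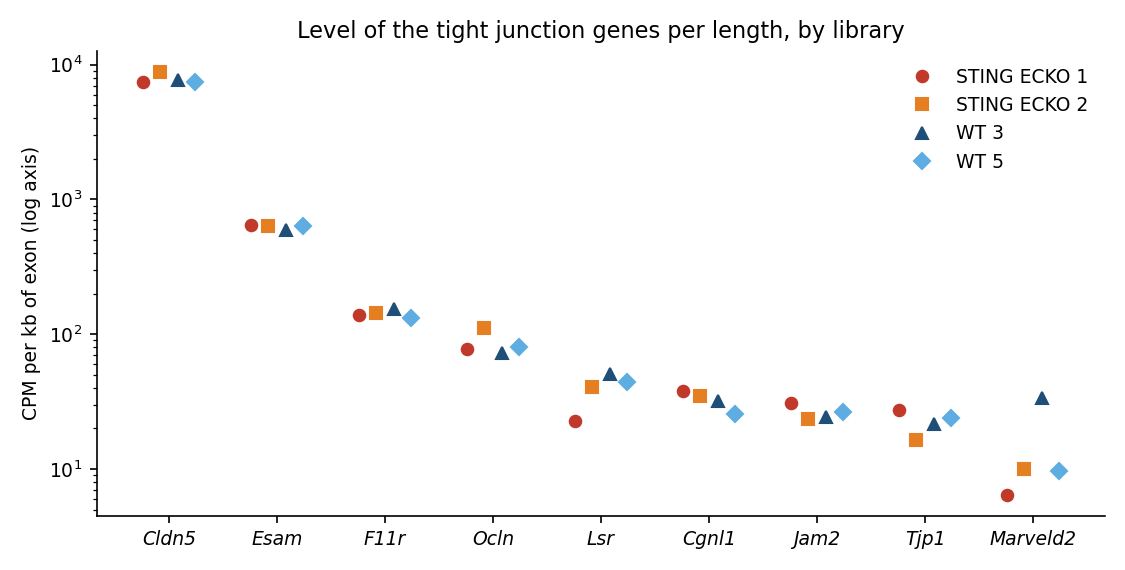
Level of each of the 9 genes in CPM per kb of merged exon (log axis), 1 point per library, with STING ECKO 1 and 2 left of WT 3 and 5 and genes in order of their mean. Cldn5 sits at 7402 to 8849 CPM per kb, above Esam at 597 to 648, while the 5 genes on the right overlap with their neighbours and Marveld2 has 1 high library, WT 3.

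The sequences of a pair of promoters show where the most abundant gene and the most variable one begin. They are the 250 bases before the annotated start of Cldn5 (chr16:18776597-18776846, plus strand) and of Marveld2 (chr13:100616972-100617221, minus strand), from RefSeq on GRCm38.p6, written 5′ to 3′. Capitals mark the motifs searched on both strands, which were the CCAAT box (CCAAT), the GC box (letters GGGCGG) and a TATA motif (letters TATAA), and no motif overlaps another here.
Cldn5: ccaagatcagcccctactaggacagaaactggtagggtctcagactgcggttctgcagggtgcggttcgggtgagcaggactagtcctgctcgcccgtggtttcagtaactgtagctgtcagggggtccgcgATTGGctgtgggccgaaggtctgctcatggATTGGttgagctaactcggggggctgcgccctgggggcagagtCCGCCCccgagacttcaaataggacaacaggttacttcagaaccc
Marveld2: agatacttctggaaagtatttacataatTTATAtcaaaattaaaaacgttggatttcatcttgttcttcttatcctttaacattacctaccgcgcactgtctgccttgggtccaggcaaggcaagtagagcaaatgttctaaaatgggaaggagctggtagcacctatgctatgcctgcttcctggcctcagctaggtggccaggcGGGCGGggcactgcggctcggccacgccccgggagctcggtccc
The Cldn5 window holds the CCAAT box 2 times and the GC box 1 time, all as the reverse complement. The Marveld2 window holds the GC box 1 time and the TATA motif 1 time, and no CCAAT box. Of 32851 such windows in the RefSeq table, 33.8% hold the CCAAT box, 32.7% the GC box and 22.8% the TATA motif, so each is common, and a match is a description of the window only. Windows for 7 of the 9 genes were in the table, and all 7 hold the GC box, but that of Tjp1 lies 156537 bases from the start of the gene in the deposited tables. The GC content of the 7 ran from 50.4% (Marveld2) to 70.8% (Cgnl1), against a median of 52.4% over all windows. All but that of Marveld2 lay above this median, and the shares of all windows were not matched for GC content.

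No member differed between the genotypes beyond the spread between libraries. The quasi-likelihood test of edgeR, with p adjusted over 13365 genes by Benjamini and Hochberg's method, called 0 of the 9, beside 0 of all genes (0%), and each of the 9 had an adjusted p of 1.00. At an unadjusted p under 0.05 the counts were 0 of 9 and 642 of 13365 (4.80%). DESeq2, another count test, called 0 of the 9, where it called 87 of all genes (0.651%). The log2 fold change of STING ECKO over WT was above 0 for 5 members and below 0 for 4, with a median of 0.06, beside 48.2% above 0, 51.8% below 0 and a median of -0.03 over all genes tested. The genotypes did not overlap in 3 of the 9 genes, 2 higher and 1 lower in STING ECKO, which is near the 34.4% of all genes tested (15.4% higher and 19.0% lower).

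Cldn5 (ENSMUSG00000041378, chromosome 16, 18776847 to 18778260, plus strand) is a gene of 1 exon whose protein restricts the passage of small molecules between brain endothelial cells in the mouse. It stood at 10482 and 12529 CPM in STING ECKO 1 and 2, against 10848 and 10524 CPM in WT 3 and 5. STING ECKO 2 was the highest library and STING ECKO 1 the lowest, so the genotypes overlapped, and the highest library was 1.20 times the lowest. Means were 11506 ± 1448 CPM in STING ECKO and 10686 ± 229 CPM in WT (SD, n = 2 each). STING ECKO over WT gave a log2 fold change of 0.11 (SE 0.15, 95% interval -0.27 to 0.48), and -0.02 without STING ECKO 2. Cldn5 alone took 1.03% and 1.24% of all reads in STING ECKO 1 and 2, against 1.09% and 1.06% in WT 3 and 5.

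Ocln (ENSMUSG00000021638, chromosome 13, 100496507 to 100552718, minus strand) encodes occludin, a MARVEL protein of the strands. It measured 327 and 468 CPM in STING ECKO 1 and 2, against 306 and 342 CPM in WT 3 and 5. STING ECKO 2 stood above the other 3 libraries, and STING ECKO 1 lay between the WT libraries. Its log2 fold change of 0.30 (SE 0.25, 95% interval -0.33 to 0.93) was 0.02 without STING ECKO 2. The ratio of Cldn5 to Ocln, both per kb, was 95.4 and 79.9 in STING ECKO 1 and 2, against 106 and 91.8 in WT 3 and 5.

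Marveld2 and Lsr, the pair of genes that act at tricellular corners, varied most among the libraries. Marveld2 (ENSMUSG00000021636, chromosome 13, 100595957 to 100616971, minus strand) encodes tricellulin and lies 43238 bases from Ocln, with no protein-coding gene annotated between them. It reached 21.8 and 34.0 CPM in STING ECKO 1 and 2, against 114 and 32.5 CPM in WT 3 and 5. WT 3 alone stood high, at 5.21 times the lowest library, and WT 5 lay between the STING ECKO libraries. The counting intervals (95%, exact binomial, for counting error only) were 19.8 to 24.1 and 31.6 to 36.5 CPM in STING ECKO 1 and 2, against 109 to 118 and 30.1 to 35.1 CPM in WT 3 and 5, so counting error does not span the gap to WT 3. A log2 fold change of -1.39 (SE 0.71, 95% interval -3.21 to 0.43) resulted, and without WT 3 it was -0.22, without WT 5 -2.02.

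The 2 neighbouring MARVEL genes did not share a profile. The ratio of Ocln to Marveld2 per kb was 12.01 and 11.03 in STING ECKO 1 and 2, against 2.15 in WT 3 and 8.42 in WT 5. For STING ECKO 1 over WT 3, a comparison of single libraries, the authors' deposited table gives Marveld2 a fold change of 0.188 and marks it. For STING ECKO 2 over WT 5, the authors' deposited table gives it 1.02, unmarked.

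Lsr (ENSMUSG00000001247, chromosome 7, 30957770 to 30973464, minus strand) stood at 49.6 and 88.8 CPM in STING ECKO 1 and 2, against 111 and 95.6 CPM in WT 3 and 5. STING ECKO 1 alone stood low, and STING ECKO 2 was just under WT 5, so the genotypes did not overlap. Lsr had a log2 fold change of -0.58 (SE 0.40, 95% interval -1.59 to 0.44), -0.22 without STING ECKO 1 and -1.05 without STING ECKO 2. In the authors' deposited tables its fold change was 0.438 for STING ECKO 1 over WT 3, where it was marked, and 0.910 for STING ECKO 2 over WT 5, where it was not.

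The value of Lsr is uncertain, because exons of Gm4673 overlap it on the opposite strand and no source used here gives the strand setting of the counting. Gm4673 reads numbered 313 and 14 in STING ECKO 1 and 2, against 138 and 174 in WT 3 and 5. They were highest in STING ECKO 1 and lowest in STING ECKO 2, while Lsr was under both WT libraries in each. Exons of Gm17077, which neither deposited table lists, also overlap Lsr on the opposite strand. Summed, a choice made after these values were seen, Lsr and Gm4673 were at 66.7 and 89.4 CPM in STING ECKO 1 and 2, against 117 and 104 CPM in WT 3 and 5. The order of the libraries was as for Lsr alone. Reads counted for neither gene are not in this sum, and the part of the overlap in the level of Lsr was not tested. Markers of astrocytes also summed lower in STING ECKO, at 35.4 and 0.640 CPM in STING ECKO 1 and 2 against 82.9 and 76.6 CPM in WT 3 and 5, over 6 of 7 markers in both tables, with Acsbg1 at 0 in STING ECKO 1 and Aqp4, Slc1a2, Aldh1l1 and Acsbg1 at 0 in STING ECKO 2. All 7 neuron markers were in both tables and summed to 55.2 and 28.9 CPM in STING ECKO 1 and 2, against 109 and 71.1 CPM in WT 3 and 5, with 2 of them at 0 in each STING ECKO library. The neuron marker Rbfox3 was highest in STING ECKO 2, at 6.43 and 14.5 CPM in STING ECKO 1 and 2, against 1.20 and 8.92 CPM in WT 3 and 5. Map2 and Stmn2 were higher in STING ECKO 1 than in WT 5, and Snap25 was higher in STING ECKO 2 than in WT 5. The astrocyte marker Aldh1l1 was higher in STING ECKO 1 than in WT 3. All other markers in these sums were lower in both STING ECKO libraries than in both WT libraries. The part of astrocytes and neurons in the level of Lsr was not tested.

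**Figure D2:**
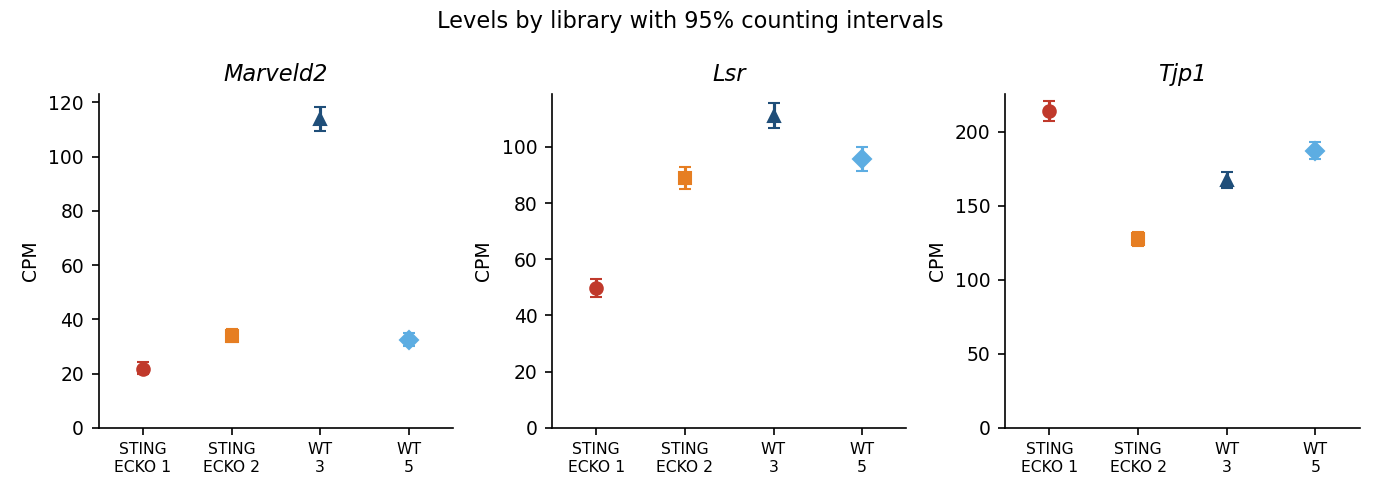
Levels of Marveld2, Lsr and Tjp1 in CPM (linear axes from 0), 1 point per library with STING ECKO left of WT, and bars for the 95% exact binomial counting interval. WT 3 stands high for Marveld2 at 114 CPM and STING ECKO 1 low for Lsr at 49.6 CPM. For Tjp1, STING ECKO 2 is low at 127 CPM and STING ECKO 1 high at 214 CPM, on either side of the WT libraries.

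Of the adhesion molecules of the immunoglobulin superfamily, Esam and F11r had the narrowest ranges of the 9 genes, with the highest library of Esam at 1.09 times the lowest. F11r (ENSMUSG00000038235, chromosome 1, 171437535 to 171464603, plus strand) encodes JAM-A, which platelets, leukocytes and epithelia also carry. It measured 369 and 383 CPM in STING ECKO 1 and 2, against 408 and 354 CPM in WT 3 and 5. The STING ECKO libraries lay between the WT libraries, with a log2 fold change of -0.02 (SE 0.19, 95% interval -0.51 to 0.47). It was 0.01 when STING ECKO 1 was left out and 0.09 when WT 3 was.

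Jam2 (ENSMUSG00000053062, chromosome 16, 84774123 to 84825928, plus strand) encodes JAM-B, found on endothelium. It reached 188 and 143 CPM in STING ECKO 1 and 2, against 148 and 161 CPM in WT 3 and 5. Here the WT libraries lay between the STING ECKO libraries. Jam2 had a log2 fold change of 0.10 (SE 0.26, 95% interval -0.56 to 0.76), and of -0.11 without STING ECKO 1.

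Esam (ENSMUSG00000001946, chromosome 9, 37528078 to 37538319, plus strand) encodes an adhesion molecule of endothelium and platelets. Its level was 1859 and 1831 CPM in STING ECKO 1 and 2, against 1712 and 1827 CPM in WT 3 and 5. WT 3 was the lowest library, and although the genotypes did not overlap, STING ECKO 2 and WT 5 differed by little. Its log2 fold change of 0.06 (SE 0.15) had a 95% interval of -0.32 to 0.44. Platelet and megakaryocyte markers, 5 of 7 in both tables, summed to 34.1 and 54.6 CPM in STING ECKO 1 and 2, against 12.2 and 18.5 CPM in WT 3 and 5, with Gp5 and Gp9 at 0 in STING ECKO 2 and in WT 3. Pericyte and smooth muscle markers, 6 of 8 in both tables, summed to 9033 and 9314 CPM in STING ECKO 1 and 2, against 7305 and 6730 CPM in WT 3 and 5, with Acta2 at 0 in both STING ECKO libraries. Rgs5 made up most of the pericyte sum, at 6845 and 7221 CPM in STING ECKO 1 and 2, against 5588 and 4874 CPM in WT 3 and 5, while Cspg4 went the other way, at 83.8 and 152 CPM in STING ECKO 1 and 2, against 154 and 181 CPM in WT 3 and 5. Itga2b, at 22.1 and 40.2 CPM in STING ECKO 1 and 2, against 6.42 and 5.01 CPM in WT 3 and 5, made up most of the platelet sum in STING ECKO, and none of the other 4 platelet markers was higher in both STING ECKO libraries than in both WT libraries. The part of these cells in the levels of Esam was not tested.

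Both plaque genes were highest in STING ECKO 1, but they differed in STING ECKO 2, where Tjp1 was lowest. Tjp1 (ENSMUSG00000030516, chromosome 7, 65296165 to 65527781, minus strand) encodes ZO-1, the scaffold that binds claudins, occludin and JAMs. It stood at 214 and 127 CPM in STING ECKO 1 and 2, against 168 and 187 CPM in WT 3 and 5. STING ECKO 1 was the highest library and STING ECKO 2 the lowest, at counting intervals of 208 to 221 and 123 to 132 CPM, with the WT libraries between them. STING ECKO over WT gave a log2 fold change of -0.05 (SE 0.32, 95% interval -0.88 to 0.77), 0.28 without STING ECKO 2, 0.03 without WT 5 and -0.48 without STING ECKO 1.

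Cgnl1 (ENSMUSG00000032232, chromosome 9, 71626509 to 71771602, minus strand) encodes paracingulin, which links junctions to actin and to regulators of small GTPases. It measured 299 and 274 CPM in STING ECKO 1 and 2, against 249 and 199 CPM in WT 3 and 5. Both STING ECKO libraries were above both WT libraries, at means of 287 ± 17.6 and 224 ± 35.4 CPM (SD, n = 2 each). Its log2 fold change of 0.35 (SE 0.22, 95% interval -0.21 to 0.92) stayed above 0 without each library, from 0.21 to 0.53. Cgnl1 was the only member whose difference between the genotype means exceeded the differences within both genotypes, and it did not pass the test. The share of all genes for which this holds was not computed. The sums of the pericyte and platelet markers given for Esam were also higher in both STING ECKO libraries, though not all their genes were, and the part of these cells in the level of Cgnl1 was not tested.

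**Figure D3:**
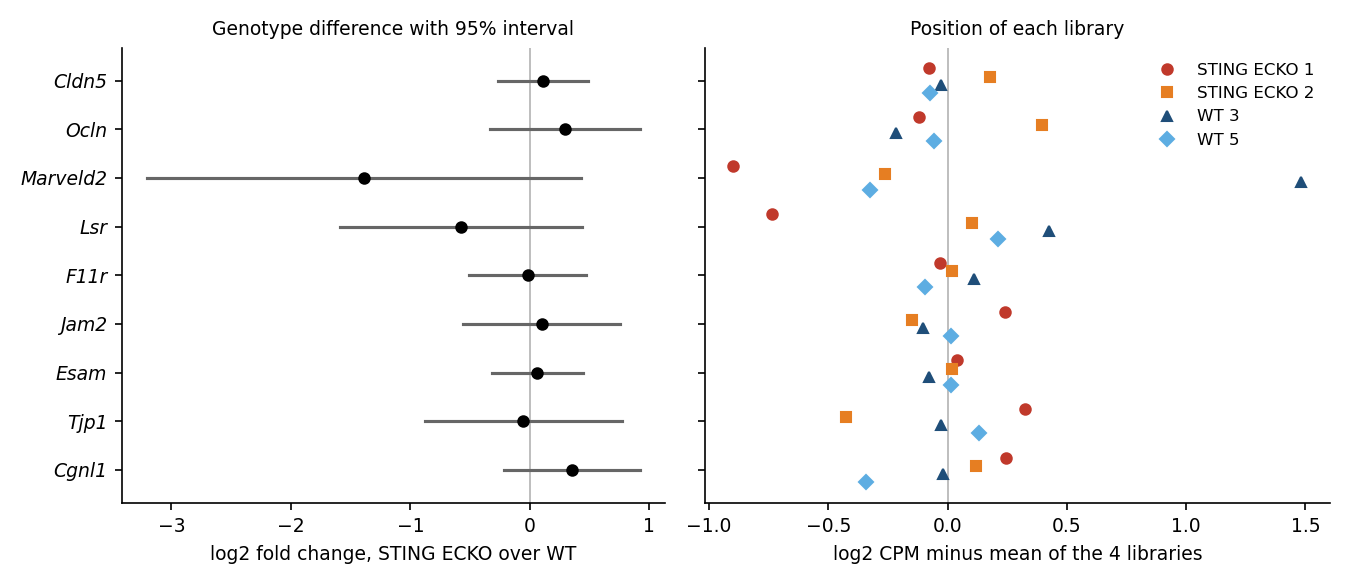
Left, the log2 fold change of STING ECKO over WT for the 9 genes with its 95% interval from the edgeR quasi-likelihood fit; right, log2 CPM of each library minus the mean of the 4. Every interval spans 0, from Marveld2 at -1.39 to Cgnl1 at 0.35, and for most genes 1 library stands apart from the other 3.

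By median, the members differed less between libraries than tested genes of at least 20 CPM on average. Their median absolute log2 difference was 0.39 between STING ECKO 1 and 2, 0.16 between WT 3 and 5 and 0.10 between the genotype means. The same medians were 0.54, 0.38 and 0.34 over the 6891 tested genes of at least 20 CPM on average with reads in every library. Without that floor they were larger, at 0.71, 0.51 and 0.45 over 11226 genes, so these medians depend on level. No set matched to the members in level was drawn, so the comparison describes the set and tests nothing. For 8 of the 9 genes the larger of the differences within a genotype exceeded that between the genotype means. This measure sets the larger of 2 differences between single libraries against a difference between means, which favours a high count. The share of all genes for which this holds was not computed, so the count is not read as a trait of the members. Over the 11226 genes, as over the 6891, the median difference was also smaller between the genotype means than within either genotype.

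Ratios within a library, which do not depend on its scaling, showed the same single libraries. Ocln to Tjp1 per kb was 2.83 and 6.79 in STING ECKO 1 and 2, against 3.38 in both WT libraries. Esam to F11r per kb held between 3.89 and 4.80 in all 4. Esam made up 62.7% to 65.5% of the summed level per kb of the 8 members other than Cldn5 in STING ECKO and 60.6% to 65.0% in WT.

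The reads of each member were also set against the summed reads of the 10 endothelial markers of the same library. Per 1000 such reads, Cldn5 had 623 and 974 in STING ECKO 1 and 2, against 675 and 664 in WT 3 and 5. Esam had 111 and 142 per 1000 in STING ECKO 1 and 2, against 107 and 115 in WT 3 and 5. STING ECKO 2 was the highest for both genes, and the summed level of the markers was lowest there. The sum holds much of Slc2a1, the glucose transporter GLUT1, which had 7451 and 4662 CPM in STING ECKO 1 and 2, against 7085 and 7111 CPM in WT 3 and 5. Per read of Pecam1 and Cdh5 alone, Cldn5 had 13.6 and 15.4 reads in STING ECKO 1 and 2, against 11.2 and 11.9 in WT 3 and 5, and Esam had 2.41 and 2.25 in STING ECKO 1 and 2, against 1.77 and 2.07 in WT 3 and 5. The order of the libraries therefore depended on the markers chosen: STING ECKO 1 was the lowest for Cldn5 with the 10 markers and above both WT libraries with this pair. With libraries scaled to these markers, log2 fold changes of all genes shifted by a median of 0.12. Before that shift is taken off, Tjp1 was at 0.03 and F11r at 0.12, above 0. With the shift taken off, Tjp1 was at -0.09, F11r at -0.0033, Cldn5 at 0.14, Ocln at 0.34, Marveld2 at -1.33 and Lsr at -0.51. Taking it off largely undoes the scaling, so these values are no check on endothelial content. Under this scaling, 0 of the 9 passed.

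For each member, the gene with the most similar profile was sought among 4067 tested genes of at least 50 CPM on average, by the Euclidean distance between log2 CPM centred on each gene's own mean over the 4 libraries. F11r was nearest to Ppia (distance 0.014), Cldn5 to Vps52 (0.032), Ocln to Calm2 (0.036), Jam2 to Prkd2 (0.039), Esam to Ptp4a2 (0.043), Cgnl1 to Shroom1 (0.052), Tjp1 to Gosr1 (0.064) and Lsr to Ubl7 (0.12). Of the members, Marveld2 was the farthest from its nearest gene, Zfp830, at 0.62. Profiles were not scaled to the same spread, so the distance depends on how widely a gene varied, and Marveld2 varied most. Zfp830 reached 28.4 and 41.8 CPM in STING ECKO 1 and 2, against 88.4 and 41.6 CPM in WT 3 and 5, high in WT 3 as Marveld2 was. With 4 libraries and 4067 candidates, close matches are found readily. Among the members themselves, Cldn5, F11r and Esam were closest to each other (distances 0.22 to 0.23) and Tjp1 and Marveld2 were the farthest apart (2.00). These 3 close genes had narrow ranges but did not share an order of libraries. In WT 3, F11r was at its highest and Esam at its lowest.

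Of other tight junction genes, 45 were tested in 5 lists by role. The same edgeR test called 0 of the 45 (smallest adjusted p = 0.977), with 0 called by DESeq2. At an unadjusted p under 0.05 by the edgeR test the counts were 3 of 45 and, over all genes tested, 642 of 13365 (4.80%). The 3 were Afdn, Rac1 and Myh9, of which Rac1 and Myh9 were named after their values were seen. Rac1, a small GTPase, had levels of 351 and 259 CPM in STING ECKO 1 and 2, against 125 and 165 CPM in WT 3 and 5, and Myh9, a non-muscle myosin heavy chain, had 315 and 337 CPM in STING ECKO 1 and 2, against 217 and 224 CPM in WT 3 and 5. For all 45, log2 fold changes were above 0 for 23 and below 0 for 22, with a median of 0.03. The genotypes did not overlap in 19 (42.2%, beside the 34.4% of all genes tested), 9 higher and 10 lower in STING ECKO. The genes of highest level are given from each list, up to 4.

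Other claudins were scarce beside Cldn5, with 3 of the listed genes in both tables and 5 in one. Cldnd1, a claudin-domain protein, stood at 113 and 124 CPM in STING ECKO 1 and 2, against 122 and 109 CPM in WT 3 and 5. Reads of Cldn12 numbered 20 and 409 in STING ECKO 1 and 2, against 365 and 2 in WT 3 and 5, so the libraries of each genotype differed widely. For Cldn6, a claudin of embryonic epithelia, the reads were 199 and 0 in STING ECKO 1 and 2, against 60 and 57 in WT 3 and 5. All 3 had a log2 fold change above 0, with 0 past the test, though that of Cldn6 was -2.69 with limma-voom and -2.39 with the deposited table as a block.

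Among other transmembrane genes, 2 of 6 were above 0 and 4 below, with 0 past the test. Ildr2, an angulin like LSR, was the most abundant, at 192 and 186 CPM in STING ECKO 1 and 2, against 126 and 208 CPM in WT 3 and 5. WT 3, the library where Marveld2 and Lsr were highest, had the lowest level of Ildr2. Igsf5, also named JAM-4, was at 30.9 and 40.4 CPM in libraries STING ECKO 1 and 2, against 24.1 and 19.2 CPM in WT 3 and 5, a log2 fold change of 0.72 (SE 0.58). Jam3, which encodes JAM-C, measured 7.68 and 7.04 CPM in STING ECKO 1 and 2, against 9.94 and 10.8 CPM in WT 3 and 5. Marveld1 ranged widely: its reads were 255 and 0 in STING ECKO 1 and 2, against 725 and 143 in WT 3 and 5.

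Plaque scaffold genes were above 0 in 4 of 11 and below 0 in 7, with a median log2 fold change of -0.07 and 0 past the test. Afdn, the actin-binding protein afadin, stood at 270 and 254 CPM in STING ECKO 1 and 2, against 192 and 151 CPM in WT 3 and 5. Its log2 fold change of 0.62 (SE 0.23) had an unadjusted p of 0.045 and an adjusted p of 1.00 by the edgeR quasi-likelihood test. Amotl2, an angiomotin-like junction protein, measured 182 and 175 CPM in STING ECKO 1 and 2, against 218 and 196 CPM in WT 3 and 5. Ybx3, a Y-box factor that binds ZO-1, reached 128 and 173 CPM in STING ECKO 1 and 2, against 139 and 80.9 CPM in WT 3 and 5, so the genotypes overlapped.

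Polarity complex genes were above 0 in 3 of 7 and below 0 in 4, with 0 past the test. Lin7c stood at 37.9 and 49.7 CPM in STING ECKO 1 and 2, against 54.8 and 65.6 CPM in WT 3 and 5. Pard6g was at 30.0 CPM in STING ECKO 1 and 93.4 CPM in STING ECKO 2, against 35.4 and 39.1 CPM in WT 3 and 5. Pard3, a scaffold of the Par complex, measured 24.7 and 44.3 CPM in STING ECKO 1 and 2, against 43.3 and 29.3 CPM in WT 3 and 5. Its relative Pard3b gave read counts of 523 and 4 in STING ECKO 1 and 2, against 522 and 657 in WT 3 and 5, so STING ECKO 2 stood apart for 2 of these 4 genes.

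Genes of junction GTPases and contractility were above 0 in 11 of 18 and below 0 in 7, with a median log2 fold change of 0.11 and 0 past the test. Cdc42, a small GTPase, was the most abundant, at 1542 and 1456 CPM in STING ECKO 1 and 2, against 1424 and 1619 CPM in WT 3 and 5. Myl9, a myosin light chain that smooth muscle and pericytes also express, reached 381 and 383 CPM in STING ECKO 1 and 2, against 293 and 227 CPM in WT 3 and 5, a log2 fold change of 0.55 (SE 0.22). The summed pericyte and smooth muscle markers were also higher in both STING ECKO libraries, but Acta2 and Cspg4 were lower in both, and the part of these cells in the level of Myl9 was not tested. Mylk, a myosin light chain kinase, stood at 285 and 387 CPM in STING ECKO 1 and 2, against 281 and 286 CPM in WT 3 and 5. Arhgef2, an exchange factor for small GTPases, measured 345 and 212 CPM in STING ECKO 1 and 2, against 328 and 358 CPM in WT 3 and 5, low in the library where Tjp1 was low.

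A further 12 listed genes were in one table only and were not tested. Between STING ECKO 1 and WT 3, reads numbered 0 and 47 for Cldn10, 0 and 9 for Marveld3, 0 and 65 for Crb2, 0 and 5 for Cldn4 and 56 and 49 for Cldn9. Between STING ECKO 2 and WT 5 they numbered 0 and 28 for Cgn (cingulin, the relative of Cgnl1), 0 and 8 for Tjp3 (ZO-3) and 0 and 48 for Cldn11, the claudin of myelin. Cldn15, Prkcz, Magi2 and Patj had reads in the STING ECKO library of their table and 0 in the WT one.

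**Figure D4:**
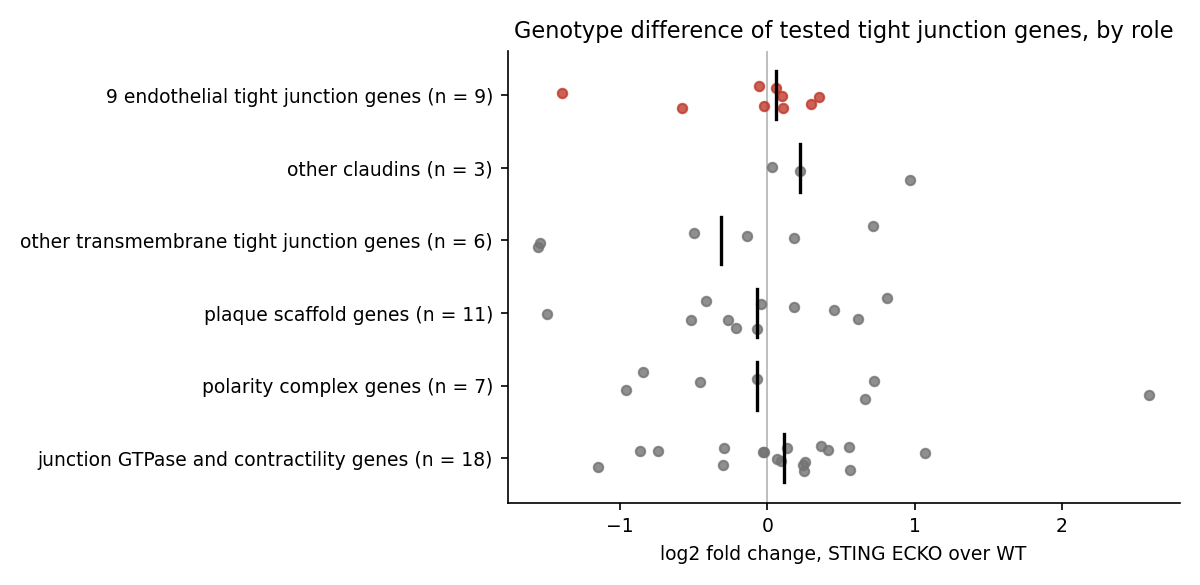
Log2 fold change of STING ECKO over WT for the 9 genes (red) and 45 other tested tight junction genes (grey) by role, 1 point per gene, spread vertically for legibility, with a bar at each list's median. List medians lie between -0.31 for other transmembrane genes and 0.22 for other claudins, and 0 genes passed the test.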

How the data were processed

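The 4 libraries came as 2 deposited tables, STING ECKO 1 with WT 3 and STING ECKO 2 with WT 5. Per the submitters' processing notes, TopHat2 2.0.12, Bowtie2 2.2.3 and HTSeq 0.6.0 were used with the build mm9; no source used here gives a strand setting. Per the file headers, each library has a count column, read here as reads per gene, and a normalized column. By their values, the deposited normalized columns are CPM, in which a count of 0 stands as 0.5 read. The deposited fold change column is a ratio of CPM, with its log2 beside it, and the deposited p-values compare 1 library with 1 library. Positions of 8 of the 9 genes were identical to GENCODE M21 on GRCm38, and Cldn5 differed by 2 bases at its end, so coordinates are those of GRCm38.

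The 14100 genes in both tables, joined by gene identifier, were analysed. The genotype test was the quasi-likelihood test of edgeR 4.0.16 (R 4.3.3) after filterByExpr with a minimum count of 10 and TMM, with p adjusted over 13365 genes by Benjamini and Hochberg's method at 0.05. The SE is the log2 fold change over the square root of F, and 95% intervals use the t distribution. Alternatives were limma-voom (limma 3.58.1), DESeq2 1.42.0, edgeR's likelihood ratio test, other scalings and filters, the union of both tables, a block by table, and each library left out. The fit was tested on simulated data. Exon lengths came from GENCODE M21. Counting intervals cover counting error only, as reads were not tied to molecules.

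The members and lists were chosen with earlier results of these data known. The rule named all 9 genes, Tmem173, the 4 genes of highest mean CPM in each other list and the nearest gene by profile; other genes were named as markers, for overlap with a member, because only one table lists them, or because they were the others at an unadjusted p under 0.05. One gene that the rule named is not reported here.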

Additional observations from a re-analysis of the deposited data

Results flagged for a closer look

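Reads of 4 tight junction genes appeared in data outside the genotype test, because only one deposited table lists them. Each had reads in STING ECKO and 0 in WT within its table, while 7 others of the 12 genes in one table went the other way, with 0 in STING ECKO and 5 to 65 reads in WT. Patj, a scaffold of the Crumbs complex, had 316 reads in STING ECKO 2 and 0 in WT 5. Magi2, a membrane-associated scaffold, had 98 reads in STING ECKO 1 and 0 in WT 3. Cldn15, a claudin, had 66 reads in STING ECKO 1 and 0 in WT 3, and Prkcz, the atypical protein kinase C of the Par complex, had 5 and 0. A 0 allows up to 3 reads by counting error. The other libraries of these genes are not listed. Among the genes in both tables, 0 reads were recorded for 5.25% in WT 3 and 2.39% in WT 5. The share at 0 among the 3805 genes in one table, to which these 4 belong, was not computed. None of the 12 genes was at 0 in both libraries of its table, so how rare such a 0 is cannot be read from these shares.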

How the results depend on the processing

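The main fit was not paired because, by replicate number, the labels match no libraries across genotypes. They do not give the basis of the 2 deposited pairs (STING ECKO 1 with WT 3, STING ECKO 2 with WT 5). A fit that took these pairs as a block called 0 genes. The count of all genes called was 0 with edgeR's quasi-likelihood test, 87 with DESeq2 and 33 with the edgeR likelihood ratio test, and 0 without any 1 library. Under these and the other alternatives, 0 of the 9 members and 0 of the 45 other tight junction genes were called, with adjusted p for the members from 0.283 (Ocln without STING ECKO 1) to 1.00. Cldn5's mean share of the members' level per kb was 88.7%, and 85.1% with the longest transcript as length, with the order of the genes unaltered. With libraries scaled to endothelial markers the log2 fold change turned above 0 for Tjp1 (0.025), F11r (0.115), Pard3 (0.112) and Cdc42 (0.102). Each lay under the median shift of all genes (0.119), which the same scaling brought about. For Cldn6 the log2 fold change was -2.69 with limma-voom and -2.39 with the block by table. The cause was not tested. Leaving out each library gave ranges that span 0 for Cldn5 (-0.022 to 0.23), Tjp1 (-0.48 to 0.28), Jam2 (-0.11 to 0.29), F11r (-0.11 to 0.091), Cldn6 (-8.89 to 1.98), Cldn12 (-2.95 to 6.60), Cldnd1 (-0.04 to 0.12), Marveld1 (-11.76 to 0.014), Ildr2 (-0.14 to 0.59), Pard3 (-0.55 to 0.29), Pard3b (-7.21 to 0.037), Pard6g (-0.31 to 1.33), Arhgef2 (-0.70 to 0.014) and Cdc42 (-0.11 to 0.081). The remaining library is then assumed to vary like those of the other genotype. With 2 libraries per genotype, 95% intervals of the members reached 0.48 for Cldn5 and -3.21 for Marveld2, so differences within such intervals were not detectable.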
